A study of Mus musculus with 8 samples.

Results

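The 10 genes described here encode enzymes and carriers that remove superoxide and peroxides or that are induced with them: Sod1, Sod2, Cat, Gpx1, Gpx4, Prdx3, Prdx5, Txn2, Nqo1 and Hmox1. They were chosen by name, by a rule that uses no measured value, although earlier results of these data were known. They were found by matching the Ensembl identifiers of the expression table to mouse symbols. All 10 of 10 were listed among the 25929 genes of the table, and all 10 were among the 14442 genes with at least 1 FPKM (fragments per kilobase of transcript, scaled to the depth of the library) in at least 2 libraries, which were the genes tested. RNA-sequencing had been done on mouse hearts, labelled as ventricular tissue although the methods of the study describe whole hearts, in 8 libraries with 2 in each of 4 groups. WT-Sham and WT-TAC were C57BL/6 hearts, and Fat1-Sham and Fat1-TAC were hearts of Fat-1 littermates, which carry a transgene from Caenorhabditis elegans for an n-3 fatty acid desaturase that makes n-3 from n-6 polyunsaturated fatty acids. The mice were 3 months old at surgery. TAC is a transverse aortic constriction, a narrowing of the aorta that loads the left ventricle with pressure, and it was kept for 8 weeks, whereas the sham groups had the chest opened without the constriction. The promoter of the transgene is not given in the sources used here, and the transgene itself was not analysed here. Neither the labels nor the methods tie a library to 1 animal, so the p-values below measure the spread between these libraries, which may be in part technical.

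Superoxide, a by-product of the respiratory chain and the product of NADPH oxidases, is turned into hydrogen peroxide by superoxide dismutases, in the cytosol by SOD1 and in the mitochondrial matrix by SOD2. Hydrogen peroxide is then removed by catalase, by glutathione peroxidases at the cost of glutathione, and by peroxiredoxins, which are reduced again by thioredoxins. The transcription factor NRF2, held back by KEAP1 until oxidants or electrophiles modify it, raises a set of detoxifying genes that includes Nqo1 and Hmox1. The heart, whose cardiomyocytes are rich in mitochondria, depends strongly on the mitochondrial members of this system.

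The libraries held 14163994 to 21218331 fragments, of which 99.6% to 99.8% lay on listed genes. At this depth even the lowest of the 10 genes, Hmox1, was measured with 153 to 304 fragments per library, and Gpx4 with 6449 to 10343. WT-TAC1 stood apart from the other 7 libraries. The summed level of 8 cardiomyocyte genes was 23265 FPKM in WT-TAC1 and between 42543 and 56387 FPKM elsewhere, so the labelled tissue was present in every library. A sum over 9 nuclear genes of the respiratory chain and citric acid cycle was 8313 FPKM in WT-TAC1 and 13009 to 14946 FPKM elsewhere. All 5 thymocyte markers together reached 891 FPKM in WT-TAC1 and at most 0.537 FPKM in any other library, and 5 airway markers reached 1462 FPKM in WT-TAC1, 3912 FPKM in WT-TAC2, 48.6 FPKM in Fat1-Sham1 and at most 1.104 FPKM in the other 5. In bulk tissue, fewer cells of a type and less RNA per cell cannot be told apart, and the part of these differences in the results below was not tested unless a value is given.

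Both glutathione peroxidases among the genes are selenoproteins. Their active site residue, selenocysteine, is written in the mRNA as TGA, which elsewhere stops translation. The 51 bases around that codon are shown because Gpx1 and Gpx4 share this coding device and yet had different patterns across the libraries. They are from the coding strand of GRCm38 with the TGA codon in capitals. The Gpx1 stretch lies in exon 1 of 2 of Gpx1-201 at chr9:108339427-108339477, and the Gpx4 stretch in exon 3 of 7 of Gpx4-201 at chr10:80054713-80054763, both on the plus strand. In GENCODE M21 (GRCm38) the whole genes span chr9:108338903-108340343 for Gpx1 and chr10:80047166-80056439 for Gpx4.
Gpx1: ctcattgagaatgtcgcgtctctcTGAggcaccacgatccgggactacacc
Gpx4: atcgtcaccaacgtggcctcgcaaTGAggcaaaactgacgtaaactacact

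Promoters were read from RefSeq (GRCm38.p6), which gave 250 bases before 12 starts of 9 of the 10 genes, Hmox1 being the exception. The core of the antioxidant response element, TGACNNNGC, was searched on both strands and was found in 1 of the 12 promoters, that of Sod1, and in 10.2% of 32851 promoters of the same length. The GC box GGGCGG was found in 10 of 12, against 32.7% of all promoters, and TATAAA in 3 of 12 (Nqo1, Prdx3 and Sod1), against 12.4%. By gene, the GC box was found in 8 of the 9. Windows of Gpx4 overlap in part, so the same site can be counted in more than 1 promoter. The window of Nqo1, whose level was highest in Fat1-TAC, is printed from 120 to 11 bases before its start (chr8:107403216-107403325, minus strand), with 2 GC boxes, the first of them read on the opposite strand, and the TATAAA in capitals. The window of Sod1, whose level varied least, is printed from 90 to 31 bases before its start (chr16:90220672-90220731, plus strand), with the antioxidant response element core, which lies on the opposite strand, in capitals. These matches describe the letters only, and sequence beyond 250 bases before a start was not searched for any motif.
Nqo1: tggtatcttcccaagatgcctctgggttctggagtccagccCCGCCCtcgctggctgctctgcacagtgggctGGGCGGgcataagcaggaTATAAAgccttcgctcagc
Sod1: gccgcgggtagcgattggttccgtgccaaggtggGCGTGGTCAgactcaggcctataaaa

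In WT-Sham hearts the mean levels per length ran from 641 FPKM for Gpx4 to 9.53 FPKM for Hmox1, in the order Gpx4, Prdx5, Sod1, Txn2, Prdx3, Sod2, Gpx1, Cat, Nqo1 and Hmox1. The libraries of Prdx5 and Sod1, of Txn2 and Prdx3, and of Gpx1 and Cat overlapped, so these neighbours did not differ beyond their spread, whereas the other neighbours did not overlap. The gene whose place moved most was Gpx1, the fourth by mean level in WT-TAC and the eighth in both Fat1 groups.

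**Figure D1:**
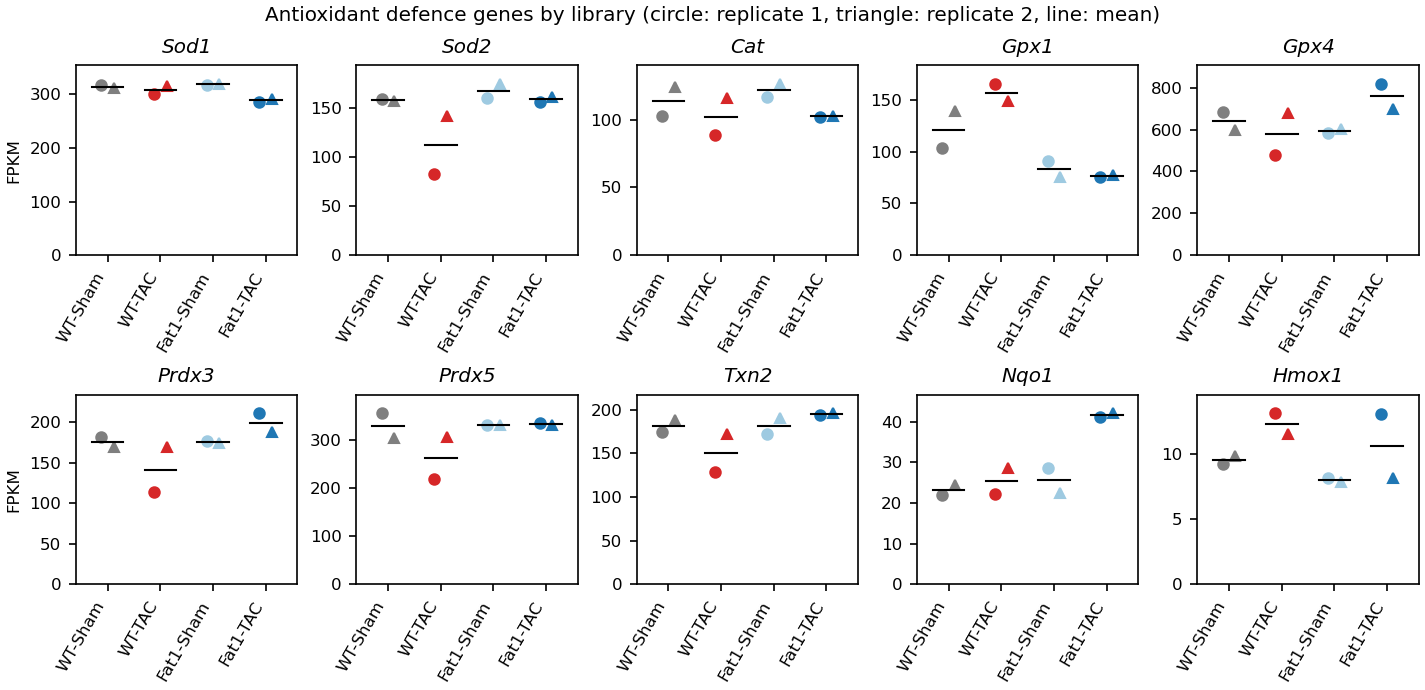
Level of each of the 10 genes in FPKM (vertical axes, each from 0) in the 4 groups (horizontal axes), with a circle for replicate 1, a triangle for replicate 2 and a line for the mean of both. Gpx1 lay between 75.2 and 90.6 FPKM in the 4 Fat1 libraries and between 103 and 165 FPKM in the 4 WT libraries, Nqo1 was highest in both Fat1-TAC libraries, and Sod2, Cat, Gpx4, Prdx3, Prdx5 and Txn2 were lowest in WT-TAC1.

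Of the superoxide dismutases, Sod1 was the steadiest of the 10 genes. Its level was 317 and 312 FPKM in WT-Sham, 299.9 and 316 FPKM in WT-TAC, 318 and 319 FPKM in Fat1-Sham and 286 and 292 FPKM in Fat1-TAC. The highest library was 1.11 times the lowest, and both Fat1-TAC libraries lay below all others. Sod2, the matrix enzyme, was at 158 and 157 FPKM in WT-Sham, 82.6 and 142 FPKM in WT-TAC, 159.6 and 174 FPKM in Fat1-Sham and 156 and 161 FPKM in Fat1-TAC. Both WT-TAC libraries lay below the other 6, but WT-TAC1 held 58.4% of the level of WT-TAC2, and most of the spread of Sod2 was in that pair. The highest Sod2 level was 2.10 times the lowest. A small share of Sod1 sequence (3.42% of its stretches of 50 bases) is also found in a pseudogene, Gm8566, at 11.05 to 18.4 FPKM. Of the stretches of Sod2, 16.0% are also found in Rps6ka2 at 6.69 to 11.5 FPKM, and 17.6% in AC166110.4, which was not listed. The levels of Sod1 and Sod2 carry that uncertainty.

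Catalase, which breaks down hydrogen peroxide without a partner, was at 103 and 124 FPKM in WT-Sham, 88.8 and 116 FPKM in WT-TAC, 117 and 126 FPKM in Fat1-Sham and 102 and 103 FPKM in Fat1-TAC. The Fat1-TAC libraries lay below the Fat1-Sham libraries, and the WT groups overlapped. Gpx1, the main cytosolic and mitochondrial glutathione peroxidase, was at 103 and 139 FPKM in WT-Sham, 165 and 149 FPKM in WT-TAC, 90.6 and 75.2 FPKM in Fat1-Sham and 75.4 and 77.004 FPKM in Fat1-TAC. All 4 Fat1 libraries lay below all 4 WT libraries, and both WT-TAC libraries lay above both WT-Sham libraries. Gpx4, which reduces peroxides of membrane lipids, was at 685 and 597 FPKM in WT-Sham, 479.7 and 680.4 FPKM in WT-TAC, 584 and 602 FPKM in Fat1-Sham and 817 and 699.6 FPKM in Fat1-TAC. Both Fat1-TAC libraries lay above the other 6, with WT-TAC1 again the lowest. Gpx4 shares 34.7% of its stretches of 50 bases with a pseudogene, Gpx4-ps2, listed at 92.0 to 153 FPKM, so reads may have been split between them.

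The mitochondrial peroxiredoxins and the mitochondrial thioredoxin had their lowest level in the same library as Sod2. Prdx3, the matrix peroxiredoxin, was at 181 and 169.8 FPKM in WT-Sham, 114 and 169 FPKM in WT-TAC, 177 and 174 FPKM in Fat1-Sham and 211 and 188 FPKM in Fat1-TAC. Prdx5, found in mitochondria, peroxisomes and cytosol, was at 354 and 303 FPKM in WT-Sham, 217 and 305 FPKM in WT-TAC, 329.8 and 330.4 FPKM in Fat1-Sham and 334 and 330.1 FPKM in Fat1-TAC. Txn2, the thioredoxin that reduces Prdx3, was at 175 and 188 FPKM in WT-Sham, 129 and 172 FPKM in WT-TAC, 172 and 190.5 FPKM in Fat1-Sham and 194 and 196 FPKM in Fat1-TAC. For Prdx3 and Txn2 both Fat1-TAC libraries were the highest of all 8. As a description over 8 libraries that share their tissue make-up, Pearson's r of the log2 level was 0.955 between Sod2 and Prdx5 and 0.900 between Sod2 and Prdx3. Without WT-TAC1 it was 0.477 and 0.1001 over the other 7, so these correlations rested on that library. Prdx5 overlaps Trmt112 on the opposite strand by 409 exon bases (19.1% of its exons), and since the sources used here do not state whether strand was used in counting, reads there cannot be told apart, with Trmt112 listed at 11.8 to 28.3 FPKM.

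Of the NRF2-inducible genes, Nqo1, a quinone reductase, was at 22.1 and 24.4 FPKM in WT-Sham, 22.1 and 28.8 FPKM in WT-TAC, 28.5 and 22.6 FPKM in Fat1-Sham and 41.2 and 42.05 FPKM in Fat1-TAC, from 486 to 1196 fragments per library. The first 3 groups overlapped one another and both Fat1-TAC libraries lay above all other 6. Hmox1, the inducible haem oxygenase, was at 9.22 and 9.85 FPKM in WT-Sham, 13.1 and 11.5 FPKM in WT-TAC, 8.16 and 7.81 FPKM in Fat1-Sham and 13.0 and 8.18 FPKM in Fat1-TAC. Its WT-TAC libraries lay above its sham libraries, while its Fat1-TAC libraries were far apart. The group highest in Nqo1, Fat1-TAC, was not the group with the highest mean of Hmox1, which was WT-TAC.

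The comparison of Fat1-TAC with WT-TAC asks how the hearts after TAC differed with the transgene. The airway markers of both WT-TAC libraries and the thymocyte markers of WT-TAC1 differ between these groups too, and cannot be told apart from it. Gpx1 was lower in Fat1-TAC, at 76.2 ± 1.16 FPKM against 157 ± 11.3 FPKM (SD, n = 2 each), a fold change of 0.488. On the log2(FPKM + 1) scale the difference was -1.03 (SE 0.18, 95% interval -1.47 to -0.60), and it passed the threshold of an adjusted p under 0.1 and a change over 1.5-fold (limma, with the Benjamini-Hochberg method over all tested genes, adjusted p = 0.0791). Gpx1 was the 1 gene of the 10 called, all called genes being 1.43% of those tested in either direction and 1.39% in the lower direction. Nqo1 was higher in Fat1-TAC in both libraries, at 41.6 ± 0.584 FPKM against 25.4 ± 4.69 FPKM (SD, n = 2 each). Its log2 difference of 0.70 (SE 0.19, interval 0.26 to 1.14) did not pass the adjustment (limma, adjusted p = 0.148, unadjusted p = 0.00719). The remaining 8 genes were not called. An unadjusted p under 0.05 was reached by 3 of the 10 genes (Gpx1, Nqo1 and Prdx3) and by 29.4% of all tested genes. Prdx3 had a log2 difference of 0.52 (SE 0.20, interval 0.05 to 0.99; limma, adjusted p = 0.166).

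The libraries of Fat1-TAC lay above those of WT-TAC without overlap for Sod2, Gpx4, Prdx3, Prdx5, Txn2 and Nqo1, as they did for 9.33% of all tested genes, and below for Sod1 and Gpx1, as for 57.1% of all. The median log2 difference was 0.38 over the 10 genes and -0.40 over all tested genes, so the table as a whole was shifted down in Fat1-TAC relative to WT-TAC. Relative to that shift, Nqo1 stood at 1.11 and Gpx1 at -0.63. With libraries scaled to their cardiomyocyte genes, the log2 differences of Sod2, Gpx4, Prdx3, Prdx5 and Txn2 turned to values between -0.25 and -0.07, Nqo1 was at 0.10 and Gpx1 at -1.65. The median over all tested genes was -0.95 with that scaling, so the table as a whole was shifted further down, and these values include that shift.

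**Figure D2:**
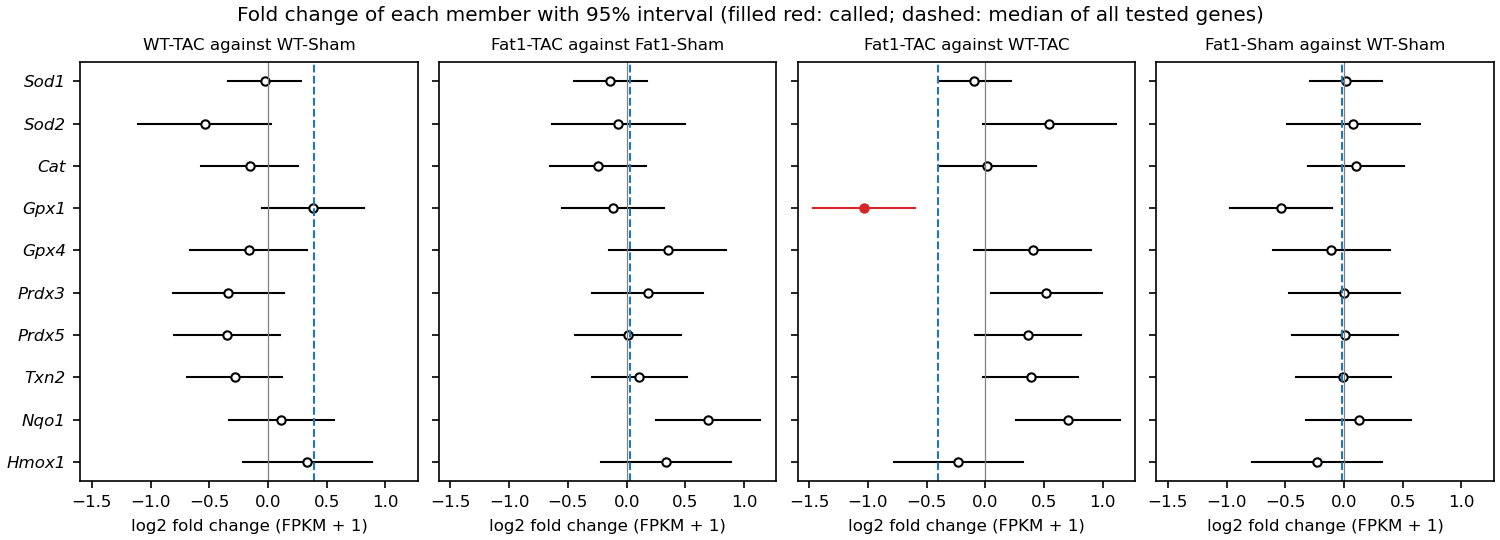
Log2 fold change on the log2(FPKM + 1) scale (horizontal axes) of each of the 10 genes (vertical axes) in 4 comparisons, with bars for the 95% interval, filled red points for called genes and a dashed line for the median of all tested genes. Gpx1 in Fat1-TAC against WT-TAC, at -1.03, is the 1 filled point, and the higher values of Sod2, Gpx4, Prdx3, Prdx5 and Txn2 in that panel turn negative when libraries are scaled to their cardiomyocyte genes. With that scaling the median of all tested genes is -0.95.

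The call on Gpx1 depended on the setting, although its direction did not. Over 17 alternatives its log2 difference ran from -1.65 to -0.57 and its adjusted p (limma) from 0.00278 to 0.469, and it was called in 2 of the 17, with no filter on low values and without WT-TAC2. Leaving out any of the other 7 libraries ended the call, with limma adjusted p = 0.181 without WT-TAC1 and 0.469 without Fat1-TAC1, where the difference was -0.96 and -1.02. For Nqo1 the log2 difference ran from 0.10 to 1.16 and the limma adjusted p from 0.00341 to 0.790, and it was called only without WT-TAC2, at 0.88. Without WT-TAC2, 7 of the 10 genes were called (Gpx1 lower, and Sod2, Gpx4, Prdx3, Prdx5, Txn2 and Nqo1 higher), as were 53.8% of all tested genes, and WT-TAC then consists of WT-TAC1 alone, which is assumed to vary like the other groups.

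**Figure D3:**
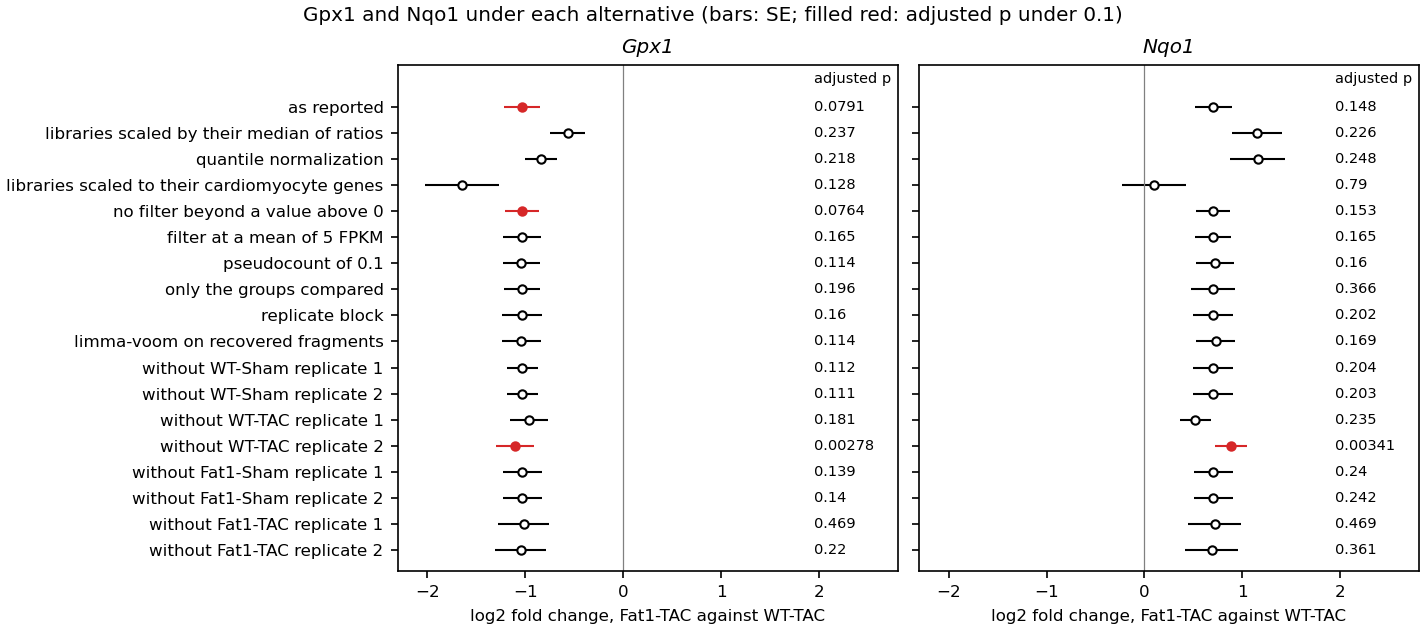
Log2 difference of Fat1-TAC against WT-TAC (horizontal axes) for Gpx1 and Nqo1 as reported and under each alternative (vertical axis), with bars for the SE, filled red points where the adjusted p was under 0.1 and the adjusted p at the right of each point. Every Gpx1 value is negative, between -1.65 and -0.57, and every Nqo1 value is positive, between 0.10 and 1.16, but few pass the threshold.

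Gpx1 is expressed in many cell types, and the sums of several marker lists are given beside it. The summed level of 8 macrophage genes was 353 and 426 FPKM in WT-Sham, 641 and 492 FPKM in WT-TAC, 312 and 325 FPKM in Fat1-Sham and 320 and 301 FPKM in Fat1-TAC, so that the 4 Fat1 libraries lay below the 4 WT libraries as they did for Gpx1. A sum of 4 fibroblast genes was 393 and 625 FPKM in WT-Sham, 630 and 637 FPKM in WT-TAC, and 356 to 410 FPKM in the Fat1 libraries, so that WT-Sham1 lay within the range of the Fat1 libraries, unlike for Gpx1. The airway sums were 1462 and 3912 FPKM in WT-TAC and at most 48.6 FPKM elsewhere. The adipocyte sums were 523 and 671 FPKM in WT-TAC and at most 262 FPKM elsewhere. A sum of 6 erythroid genes was 9922 and 9129 FPKM in WT-Sham, 4651 and 7805 FPKM in WT-TAC and 4017 to 5816 FPKM in the Fat1 libraries. The part of any of these lists in the result for Gpx1 was not tested. The gene most like Gpx1 over the 8 libraries was Entpd1, an ecto-enzyme that breaks down extracellular ATP, with r of 0.988 among 9487 genes with a mean of at least 5 FPKM.

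**Figure D4:**
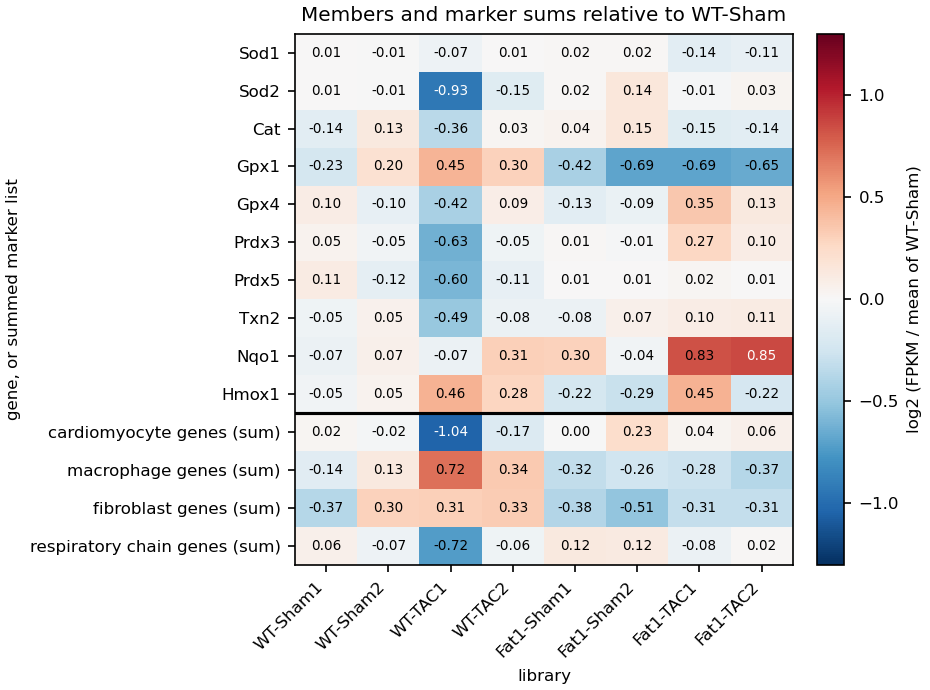
Colour map of the log2 ratio of FPKM to the mean of WT-Sham for the 10 genes and for summed marker lists (vertical axis) in each of the 8 libraries (horizontal axis). The cardiomyocyte and respiratory chain sums and the genes Sod2, Cat, Gpx4, Prdx3, Prdx5 and Txn2 are lowest in WT-TAC1, and Gpx1 and the macrophage sum are lower in the 4 Fat1 than in the 4 WT libraries.

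WT-TAC was compared with WT-Sham for the effect of TAC in hearts without the transgene, but these groups also differed in tissue make-up. The airway sums were 1462 and 3912 FPKM in WT-TAC and at most 1.104 FPKM in WT-Sham. The adipocyte sums were 523 and 671 FPKM against 162 and 229 FPKM, and WT-TAC1 also held thymocyte markers at 891 FPKM. Load and tissue make-up therefore cannot be told apart here. None of the 10 genes was called by limma, against 0.935% of all tested genes, and none had an unadjusted p under 0.05, against 27.5% of all, or was called by limma-voom on recovered fragments. The WT-TAC libraries lay above the WT-Sham libraries without overlap for Gpx1 and Hmox1, as for 52.5% of all tested genes, and below for Sod2, Prdx3 and Txn2, as for 7.09% of all. The lowest p belonged to Sod2, at 112 ± 41.7 FPKM in WT-TAC and 158 ± 1.15 FPKM in WT-Sham (SD, n = 2 each), with a log2 difference of -0.54 (SE 0.24, interval -1.103 to 0.03; limma, adjusted p = 0.186). Gpx1 stood at 0.39 (interval -0.05 to 0.82; limma, adjusted p = 0.197), close to the median of all tested genes at 0.39, and it turned to -0.09 with libraries scaled by their median of ratios. Prdx5, Prdx3 and Txn2 had log2 differences of -0.35, -0.34 and -0.28. With libraries scaled to their cardiomyocyte genes, these became 0.13, 0.14 and 0.19. The median over all tested genes rose from 0.39 to 0.81 with that scaling, so these genes lay below it in both settings. Without that scaling, the median over the 10 genes was -0.16. Without WT-TAC2, Sod2 at -0.92, Prdx3 at -0.62 and Prdx5 at -0.59 were called, as were 50.5% of all tested genes, and without WT-TAC1 no gene of the 10 was, with Sod2 at -0.15.

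The low values in WT-TAC1 were set against the cardiomyocyte content of that library. WT-TAC1 was the lowest of the 8 libraries for 6 of the 10 genes, against 15.6% of all tested genes. As a share of WT-TAC2, its level was 58.4% for Sod2, 67.3% for Prdx3, 70.5% for Gpx4, 71.2% for Prdx5, 74.9% for Txn2 and 76.8% for Cat, while it was 94.8% for Sod1, 111% for Gpx1 and 113% for Hmox1. Relative to the geometric mean of the 8 cardiomyocyte genes (times 1000), Sod2 was at 63.0 in WT-TAC1 and at 57.3 to 64.5 in the other 7 libraries. On the same scale the other 5 of the 6 genes were above the other libraries in WT-TAC1, Prdx3 at 86.8 against 61.1 to 78.2 and Txn2 at 98.4 against 66.8 to 75.7. Sod1 was at 229 against 104 to 129, and Gpx1 at 126 against 26.4 to 60.8. The reference itself was 1312 FPKM in WT-TAC1 and 2452 to 2850 FPKM elsewhere. With scaling to cardiomyocyte genes, the median log2 difference of WT-TAC against WT-Sham was 0.81 over all tested genes. The share of all tested genes above their other libraries on this scale was not computed, so these values are not particular to the 10 genes. Relative to the 9 respiratory chain and citric acid cycle genes, Sod2 was at 206 in WT-TAC1, below its range of 227 to 255 elsewhere, while Prdx3 (284 against 242 to 345) and Prdx5 (541 against 458 to 546) were inside theirs. Txn2 (322 against 246 to 318) and Cat (221 against 150.3 to 198) were above theirs.

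In Fat1-TAC against Fat1-Sham none of the 10 genes was called by limma, against 0.00692% of all tested genes, and 1 of them, Nqo1, had an unadjusted p under 0.05, as had 2.58% of all. None was called by limma-voom. Nqo1 was at 41.6 ± 0.584 FPKM in Fat1-TAC and 25.6 ± 4.21 FPKM in Fat1-Sham (SD, n = 2 each), a fold change of 1.62 and a log2 difference of 0.69 (SE 0.19, interval 0.25 to 1.14; limma, adjusted p = 1, unadjusted p = 0.00768). It lay between 0.53 and 0.85 over all alternatives, with a limma adjusted p of 0.127 to 1. The libraries of Fat1-TAC lay above those of Fat1-Sham for Gpx4, Prdx3, Txn2, Nqo1 and Hmox1 (26.8% of all tested genes) and below for Sod1 and Cat (21.5% of all). The log2 differences of the other 9 genes were between -0.24 for Cat and 0.35 for Gpx4, and the median of the 10 was 0.06, with 0.02 over all tested genes. The cardiomyocyte sums of these 4 libraries were 47900 to 56387 FPKM and their thymocyte markers were at or near 0, while the airway markers reached 48.6 FPKM in Fat1-Sham1. A sum of alveolar markers was 36.5 FPKM in Fat1-Sham1 and 0.23 to 0.55 FPKM in Fat1-Sham2, Fat1-TAC1 and Fat1-TAC2. The adipocyte sums were 215 and 75.3 FPKM in Fat1-Sham and 5.43 and 262 FPKM in Fat1-TAC, so the Fat1-TAC libraries were far apart. The part of these lists was not tested.

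In Fat1-Sham against WT-Sham, the comparison without load, no gene of the 10 was called by limma or limma-voom and 0% of all tested genes were. Gpx1 alone of the 10 had an unadjusted p under 0.05, as had 1.25% of all. It was at 82.9 ± 10.9 FPKM in Fat1-Sham and 121 ± 25.4 FPKM in WT-Sham (SD, n = 2 each), with a log2 difference of -0.53 (SE 0.18, interval -0.97 to -0.10; limma, adjusted p = 1, unadjusted p = 0.0227). The other 9 genes were between -0.23 for Hmox1 and 0.12 for Nqo1. Their intervals were wide enough to hold changes such as -0.47 to 0.47 for Prdx3 and -0.49 to 0.65 for Sod2, so equal levels were not shown. The Fat1-Sham libraries lay above the WT-Sham libraries without overlap for Sod1 and Sod2, as for 15.5% of all tested genes, and below for Gpx1 and Hmox1, as for 16.5%.

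The interaction of genotype and surgery, which asks whether the effect of TAC differed between WT and Fat1, called none of the 10 genes by limma or limma-voom and 0.0692% of all tested genes by limma. No gene of the 10 had an unadjusted p under 0.05, against 7.26% of all. Without WT-TAC2, which leaves WT-TAC1 alone in its group, 6 of the 10 were called (Sod2, Gpx4, Prdx3, Prdx5, Txn2 and Nqo1) and 45.8% of all tested genes. The log2 interaction was 0.58 for Nqo1 (SE 0.27) and -0.50 for Gpx1 (SE 0.26), both with a limma adjusted p of 0.495, and the median over the 10 genes was 0.37, with -0.37 over all tested genes. Averaged over both surgeries, a contrast added after the values were seen, Gpx1 was lower in Fat1 by limma with a log2 difference of -0.78 (SE 0.13, interval -1.09 to -0.48; adjusted p = 0.177, unadjusted p = 0.000493), which did not pass the threshold, while 0.0415% of all tested genes did. Without WT-TAC2 it was called, at -0.82 (limma, adjusted p = 0.00284), as were 25.6% of all tested genes, and over the alternatives the adjusted p ran up to 0.651. At an unadjusted p under 0.05 stood 2 of the 10 genes, Gpx1 and Nqo1, and 14.9% of all tested genes. Gpx1 was the 1 gene of the 10 whose 4 Fat1 libraries all lay below all 4 WT libraries, as 4.56% of all tested genes did, and none lay above, against 0.983% of all. Nqo1 averaged 0.41 for genotype and 0.40 for surgery (limma, adjusted p = 0.282 and 0.285). For surgery averaged over both genotypes, none of the 10 and 0% of all tested genes were called by limma, and Nqo1 was 1 of the 10 at an unadjusted p under 0.05, against 15.8% of all. No gene of the 10 separated the 4 TAC from the 4 sham libraries, whereas 7.82% of all tested genes were higher and 1.45% lower in all TAC libraries.

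A further 66 genes of oxidant handling, in 9 lists by role, were all listed, and 61 passed the filter. Between the TAC groups 3 of the 61 were called, when Fat1-TAC was set against WT-TAC, all lower (4.92%, against 1.43% of all tested genes), 24 had an unadjusted p under 0.05, against 29.4% of all, and the median log2 difference was -0.33, near the -0.40 of all tested genes. In WT-TAC against WT-Sham none was called by limma, 14 had an unadjusted p under 0.05, against 27.5% of all tested genes, and the median was 0.21. In Fat1-TAC against Fat1-Sham and Fat1-Sham against WT-Sham none was called by limma, 1 and 0 had an unadjusted p under 0.05, against 2.58% and 1.25% of all, and the medians were -0.06 and -0.05.

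The 3 genes called lower in Fat1-TAC belong to glutathione conjugation and the pentose phosphate pathway. Gstp1, a glutathione transferase, was at 7.73 and 5.81 FPKM in WT-TAC, 1.06 and 1.46 FPKM in Fat1-TAC and 2.15 to 2.98 FPKM in the sham libraries. Its log2 difference was -1.78 (SE 0.23; limma, adjusted p = 0.0368). G6pdx, which makes NADPH in the first step of the pentose phosphate pathway, was at 24.98 and 20.7 FPKM in WT-TAC, 6.08 and 7.45 FPKM in Fat1-TAC and 5.89 to 11.6 FPKM in the sham libraries, with a log2 difference of -1.62 (SE 0.29; limma, adjusted p = 0.0791). Taldo1, an enzyme of the other arm of that pathway, was at 128 and 135 FPKM in WT-TAC and 63.2 and 79.6 FPKM in Fat1-TAC, with a log2 difference of -0.88 (SE 0.17; limma, adjusted p = 0.0937). For all 3 the highest libraries of the 8 were WT-TAC1 and WT-TAC2, as they were for the airway, adipocyte, macrophage and fibroblast marker sums. The adipocyte sums were 523 and 671 FPKM in WT-TAC and at most 262 FPKM elsewhere. The macrophage sums were 641 and 492 FPKM against at most 426 FPKM, and the fibroblast sums 630 and 637 FPKM against at most 625 FPKM. The part of these marker sums was not tested. Without WT-TAC2, 28 of these other genes were called, as were 53.8% of all tested genes. With no filter on low values 3 were, against 1.35% of all, and under the other 15 alternatives 0 or 1 were. In WT-TAC against WT-Sham 23 were called without WT-TAC2, as were 50.5% of all tested genes.

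**Figure D5:**
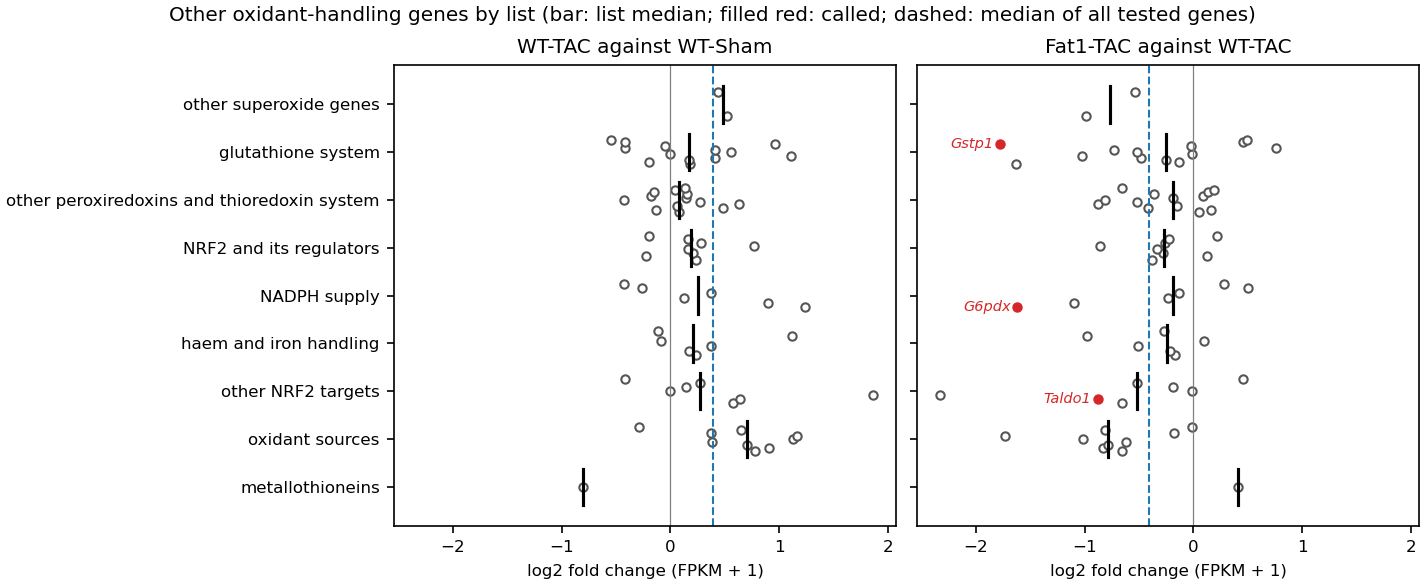
Log2 fold change on the log2(FPKM + 1) scale (horizontal axes) of the other oxidant-handling genes by list (vertical axes) in WT-TAC against WT-Sham and Fat1-TAC against WT-TAC, with a bar for each list's median, filled red points for called genes and a dashed line for the median of all tested genes. The NADPH oxidases and other oxidant sources have medians of 0.70 and -0.79, beside 0.39 and -0.40 over all tested genes. The 3 filled points are Gstp1, G6pdx and Taldo1 in Fat1-TAC against WT-TAC.

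Among the oxidant sources, 9 of 11 genes were tested and none was called by limma. Cybb, the catalytic subunit of the phagocyte NADPH oxidase, was at 22.4 and 17.2 FPKM in WT-TAC and 8.71 to 13.2 FPKM in the other 6 libraries, and Ncf4, a cytosolic subunit of the same enzyme, at 8.96 and 4.23 FPKM in WT-TAC and 1.83 to 2.92 FPKM elsewhere. Both are genes of phagocytes, and both were highest in WT-TAC1, the library with the highest macrophage sum and with thymocyte markers. Nox4, an NADPH oxidase of non-phagocytic cells, was at 4.58 and 5.37 FPKM in WT-TAC and 0.80 and 0.78 FPKM in Fat1-TAC, but its WT-Sham libraries were at 0.45 and 3.93 FPKM. Its log2 difference between the TAC groups was -1.73 and was not called.

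None of the 8 genes of NRF2 and its regulators was called in any comparison. Nfe2l2, which encodes NRF2 itself, was at 39.1 and 36.9 FPKM in WT-TAC and 28.8 and 29.0 FPKM in Fat1-TAC, with 26.6 to 34.0 FPKM in the sham libraries. Its log2 difference between the TAC groups was -0.39 and not called, near the median of all genes, and it became 0.07 with scaling by the median of ratios and 0.01 with quantile normalization. The mRNA level of Nfe2l2 does not measure the activity of NRF2, and its part in the Nqo1 level of Fat1-TAC was not tested. Cul3, part of the ligase that degrades NRF2, was at 84.1 and 70.5 FPKM in WT-TAC and 62.4 and 59.3 FPKM in Fat1-TAC. Bach1, a repressor at antioxidant response elements, was at 44.9 FPKM in WT-TAC1 and 14.0 to 19.2 FPKM in the other 7. Of 7 tested genes in the list of other NRF2 targets, Taldo1 was called in Fat1-TAC against WT-TAC, against 1.43% of all tested genes. An unadjusted p under 0.05 was reached by 3 of the 7, against 29.4% of all. Their median log2 difference was -0.52, near the -0.40 of all tested genes, and Nqo1 stood at 0.70. Tkt, which carries out the transketolase steps, was at 94.2 and 147 FPKM in WT-TAC and 14.5 to 46.7 FPKM in the other 6 libraries.

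In the lists of other superoxide genes, the thioredoxin system, haem and iron handling and metallothioneins no gene was called in these comparisons. Sod3, the extracellular superoxide dismutase, was at 16.1 and 21.3 FPKM in WT-TAC and 8.58 and 9.14 FPKM in Fat1-TAC, with a log2 difference of -0.99, and the WT-Sham libraries at 8.37 and 18.8 FPKM spanned most of that range. Ccs, the copper chaperone that loads SOD1, was at 22.3 and 19.9 FPKM in WT-TAC and 14.8 and 13.6 FPKM in Fat1-TAC. Txn1, the cytosolic thioredoxin, was at 161 FPKM in WT-TAC1 and 55.7 to 72.7 FPKM in the other 7, and its log2 difference of -0.88 was -0.31 without that library. Ftl1, a ferritin subunit that stores iron, was at 97.2 and 72.2 FPKM in WT-TAC and 31.5 to 45.8 FPKM in the other 6, with log2 differences of 1.12 against WT-Sham and -0.98 for Fat1-TAC against WT-TAC, neither of which was called. Gclc, the catalytic subunit of the first enzyme of glutathione synthesis, was at 31.95 and 19.1 FPKM in WT-TAC and 10.3 to 11.95 FPKM elsewhere, and its log2 difference of 1.104 against WT-Sham was not called (limma, adjusted p = 0.149). Mt1, a metal-binding metallothionein, was at 104 and 145 FPKM in WT-TAC and 176 and 262 FPKM in WT-Sham, the reverse order, with a log2 difference of -0.81 that was not called.

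For each gene the most similar gene over the 8 libraries was sought among 9487 genes with a mean of at least 5 FPKM, by Pearson's r of the log2 level. Sod2 was most like Tmem38a, a cation channel of the sarcoplasmic reticulum (r of 0.994, 185 to 399.9 FPKM), and Prdx5 most like Pdhb, a subunit of mitochondrial pyruvate dehydrogenase (r of 0.9945). Txn2 was most like Itgb1bp2, a chaperone of striated muscle, also with r of 0.994. Prdx3 had its closest match in Cmtm8 (0.991), Cat in Tom1l2 (0.977), Nqo1 in the peroxisomal import receptor Pex7 (0.973), Gpx4 in the mitochondrial micropeptide gene Mtln (0.968), Sod1 in the pseudogene Akt2-ps (0.960) and Hmox1 in Crbn (0.929). The matches of Sod2, Prdx5 and Txn2 are genes of muscle and mitochondria, and WT-TAC1, the lowest library for all 3, weighs in each r.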

How the data were processed

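The deposited table holds FPKM values of 25929 genes in 8 libraries, which the authors made from clean reads mapped to the reference transcriptome. The submitters' processing notes name HISAT2 and mm10/GRCm38, and the counting program, annotation and versions are not given in the sources used here. A further 4 lines without a gene identifier were left out. Whole fragments were recovered for all genes (tolerance 0.01), in 90.1% at the mean transcript length of GENCODE M21, and served for depth and for limma-voom. The values were tested as log2(FPKM + 1) with limma 3.58.1 (R 4.3.3; lmFit, eBayes with trend), using all 8 libraries, 4 group means and the genes that reached 1 FPKM in 2 libraries or more. Fold changes on this scale understate changes of low genes. A call needed a change over 1.5-fold and an adjusted p (Benjamini-Hochberg) under 0.1. The fit was tested on simulated data, with the same mean levels in all libraries apart from changes planted in WT-TAC. No simulated library stood apart as WT-TAC1 does, so that test does not bear on calls that depend on WT-TAC1. The 10 genes, the lists and the rule for named genes (from each other list the called genes, or the 2 with the lowest p) were chosen with earlier results of these data known. Other settings were a pseudocount of 0.1, no filter or one on the mean (5 FPKM), quantile normalization, scaling to cardiomyocyte genes or to the median of ratios, a fit on the compared groups alone, a replicate block, limma-voom, and each library left out. Averaged contrasts were added after the values were seen.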

Additional observations from a re-analysis of the deposited data

How the results depend on the processing

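In Fat1-TAC against WT-TAC the number of the 10 genes called went from 1 to 0 with quantile normalization, scaling to the median of ratios or to cardiomyocyte genes, a mean of 5 FPKM as the filter, 0.1 as the pseudocount, a fit on these groups alone, limma-voom and the replicate block (Gpx1, limma adjusted p = 0.160). Leaving out 1 library at a time gave 0 to 7 calls there, 0 to 3 in WT-TAC against WT-Sham, 0 to 6 for the interaction and 0 to 1 for the averaged genotype effect, the highest always without WT-TAC2, and 0 in the other comparisons. The labels do not say whether libraries with the same replicate number share anything beyond it. The r over genes of the replicate differences between groups was -0.135 to 0.024, which cannot settle this with 1 difference per group. With the replicate block the calls over all genes in the 2 comparisons with WT-TAC went from 135 to 52 and from 206 to 52. Directions that turned, as log2 differences, were these. In WT-TAC against WT-Sham, scaling to cardiomyocyte genes gave Sod1 0.45, Cat 0.32, Gpx4 0.31, Prdx3 0.14, Prdx5 0.13 and Txn2 0.19, the median of ratios Gpx1 -0.088, Nqo1 -0.34, Hmox1 -0.10, Ccs -0.015, Mafg -0.19 and Blvrb -0.076, and quantile normalization Nqo1 -0.34, Hmox1 -0.18, Ccs -0.042, Mafg -0.073 and Blvrb -0.10. In Fat1-TAC against Fat1-Sham, Prdx5 was at -0.037 with the median of ratios and -0.043 with cardiomyocyte scaling. In Fat1-TAC against WT-TAC, cardiomyocyte scaling gave Sod2 -0.067, Cat -0.60, Gpx4 -0.21, Prdx3 -0.096, Prdx5 -0.25, Txn2 -0.23 and Mt1 -0.20, the median of ratios Sod1 0.38, Hmox1 0.20, Nfe2l2 0.071 and Cul3 0.13, and quantile normalization Hmox1 0.28 and Nfe2l2 0.00586. In Fat1-Sham against WT-Sham, cardiomyocyte scaling gave Sod1 -0.072, Sod2 -0.0098, Prdx3 -0.089 and Prdx5 -0.080, quantile normalization Prdx3 -0.011, Prdx5 -0.012 and Txn2 0.0036, and the median of ratios Txn2 0.034. With 1 library left out, WT-TAC against WT-Sham ran from -0.068 to 0.0086 for Sod1, -0.35 to 0.032 for Cat, -0.41 to 0.089 for Gpx4, -0.067 to 0.30 for Nqo1 and -0.017 to 1.06 for Sod3. Fat1-TAC against Fat1-Sham ran from -0.25 to 0.018 for Gpx1 and -0.00011 to 0.018 for Prdx5, and Fat1-TAC against WT-TAC from -0.17 to 0.21 for Cat and -0.53 to 0.077 for Hmox1. Fat1-Sham against WT-Sham ran from -0.030 to 0.24 for Cat, -0.046 to 0.048 for Prdx3, -0.10 to 0.12 for Prdx5, -0.078 to 0.069 for Txn2 and -0.038 to 0.29 for Nqo1. With cardiomyocyte scaling, the median over all tested genes was 0.81 in WT-TAC against WT-Sham. It was -0.95 in Fat1-TAC against WT-TAC, and the values with that scaling include these shifts. The cause of the turned directions was not tested.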
